A study of Drosophila melanogaster with 3 samples.

Results

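Of the 9202 peaks of Lola-RI that passed the authors' irreproducible discovery rate (IDR) selection, 961 had their summit 1 to 500 bp downstream of a transcription start site (TSS), inside the transcribed region. A peak was taken when the nearest annotated protein-coding TSS lay 1 to 500 bp before its summit in the direction of transcription, and when no protein-coding TSS of the opposite strand lay within 500 bp of the summit. The choice used positions only, not scores. Each list entry holds 1 summit and is called a peak here. Several entries can share an interval, as at ph-p, and such an interval then counts more than once. The 961 peaks lay at 909 TSSs of 854 genes, and 52 of these TSSs had 2 such peaks. They made up 10.4% of the IDR list (95% Wilson interval 9.83 to 11.1%), and the same rule took 921, 1199 and 1006 of the 9202 highest-scoring peaks of replicates 1, 2 and 3. That is 10.01%, 13.03% and 10.93% of each shortened list, or 11.3% ± 1.55 (SD, n = 3). By chromosome they made up from 8.50% of the IDR peaks on 2L to 11.9% on 2R, with 3 of 33 on chromosome 4.

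The data came from chromatin immunoprecipitation with sequencing of whole Drosophila melanogaster larvae at the wandering stage of the third instar, when larvae leave the food before pupariation. All larvae carried a transgene for Lola-RI with eGFP at its C terminus, males and females were pooled, and the labels state neither an age in hours nor the promoter of the transgene. The 3 biological replicates formed 1 group of a single line, with no untagged or mutant group, and the control library was not analysed here. Per the labels the immunoprecipitation used an anti-GFP antibody, although their antibody field names lola. Whole larvae mix all tissues, so a weak peak in many cells and a strong peak in few cannot be told apart. As the reference for the downstream peaks, the 2621 IDR peaks with a summit 1 to 500 bp upstream of a TSS were taken by the mirrored rule. Of the remaining IDR peaks, 1229 had protein-coding TSSs of both strands within 500 bp, 4381 lay farther away, 9 sat on the TSS and 1 was equally far from TSSs on both sides. No IDR summit lay in lola itself (2R from 10481894 to 10543291) extended by 10000 bp on either side, and the full lists of replicates 1, 2 and 3 had 1, 0 and 0 summits there.

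The gene lola encodes many protein isoforms that share a BTB domain, which mediates contacts between proteins, and differ in the zinc fingers that contact DNA. Its isoforms are known for roles in axon guidance, neural identity and the germline. Promoter sequence on either side of a TSS has different functions. Upstream DNA holds binding sites for regulators and the TATA box, and the stretch just downstream holds core elements such as the downstream promoter element, the site where RNA polymerase II pauses, and usually the start of the 5′ UTR.

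Sequence is given first for the highest-scoring downstream peaks, because AAAGCT was the hexamer with the largest excess, in percentage points, at downstream summits over matched positions of all TSSs. Of the 15 highest-scoring downstream peaks, 10 had it within 50 bp of the summit. Of these, 8 are shown, and those of Pfk and Synj are not. Each sequence has 12 bases on either side of the match nearest to the summit, read on the strand on which the hexamer reads AAAGCT. The bases come from the release 6 genome (dm6), and capitals mark that match.
sea: gggcggactggaAAAGCTccgctgaagaac
Pfrx: tgcaacactgtaAAAGCTgcgcagcagagc
Rel: aaagctgacccgAAAGCTcggcgcaaatag
CG5001: tacctatgggaaAAAGCTccatgtagccat
Naam: tagccgaaagagAAAGCTctcttatacgga
Syp: gatcgaggcttcAAAGCTccacgcggggta
CG32195: taagctctcgccAAAGCTctctcgaagtat
bun: attcaatcgagaAAAGCTcgaaaatatcac

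The sites lie at chr3R:11562949-11562978 on the plus strand for sea, chrX:19497008-19497037 on the minus strand for Pfrx, chr3R:9047911-9047940 on the minus strand for Rel and chr2L:1185867-1185896 on the plus strand for CG5001. Those of Naam and Syp lie at chr3R:19671749-19671778 and chr3R:20780052-20780081 on the plus strand, and those of CG32195 and bun at chr3L:18114452-18114481 and chr2L:12460999-12461028 on the minus strand. In 7 of the 8 the hexamer is followed by C, and in Pfrx by G. C followed 39.4% of all 213 matches at downstream summits, where every match of a peak counts. The 8 leave out Pfk and Synj and hold only the nearest match of each peak, so these shares cannot be compared. The hexamer lay 6 bp from the summit in Rel, 11 bp in Syp and 13 bp in Pfrx, and 25 to 42 bp away in the other 5.

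Among the highest-scoring downstream peaks without the hexamer were those of Tpi, Pcd and Grx1. The 30 bases centred on their summits, in the direction of transcription, are given for contrast, at chr3R:30134469-30134498 on the minus strand, chr3L:18869494-18869523 on the plus strand for Grx1 and chr3R:29723343-29723372 on the plus strand for Pcd.
Tpi: cggtatccagtgcattgcatcagtaacgct
Pcd: gcaacgagtagaaggtattcaaaaggtgga
Grx1: ttcgagcttatgggtgcagttggatccgct

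Whole windows, reaching 50 bp to either side of the summit and read in the direction of transcription, are shown for 3 peaks whose windows lie outside every annotated UTR. Those of sea (chr3R:11562941-11563041, minus strand) and Pfrx (chrX:19496985-19497085, plus strand) lie in introns, and that of CG32195 (chr3L:18114443-18114543, plus strand) in a coding exon. Capitals mark AAAGCT or its reverse complement AGCTTT. There are 2 matches in sea, 3 in Pfrx, of which 2 overlap, and 1 in CG32195.
sea: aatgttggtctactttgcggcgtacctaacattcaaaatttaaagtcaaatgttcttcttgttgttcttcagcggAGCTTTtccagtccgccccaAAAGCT
Pfrx: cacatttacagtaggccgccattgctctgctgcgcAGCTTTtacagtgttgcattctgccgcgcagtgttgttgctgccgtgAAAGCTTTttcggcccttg
CG32195: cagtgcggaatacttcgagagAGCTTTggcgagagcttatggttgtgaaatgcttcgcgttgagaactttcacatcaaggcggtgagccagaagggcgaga

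The strongest peak of the group was that of sea, which encodes the mitochondrial citrate carrier. It spanned chr3R:11562643-11563687, ranked 20 of the 9202 IDR peaks by score, and had its summit in an intron 301 bp downstream of an internal TSS of the gene. The score ranked 18, 25 and 19 in replicates 1, 2 and 3, and the summits there lay 298, 301 and 301 bp downstream. Next was Tpi, the triosephosphate isomerase of glycolysis, at chr3R:30133861-30135377 with its summit in a coding exon 116 bp downstream of the TSS. Its rank was 25 among the IDR peaks, and 17, 35 and 25 in the replicates, whose summits lay 108, 105 and 116 bp downstream. These were the peaks of the group that stood among the top 50 in all 3 replicates with the replicate summit also downstream of the TSS.

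The other 13 of the 15 highest-scoring peaks ranked 58 to 196 of the IDR list. Pfrx, which encodes the enzyme that makes and degrades fructose 2,6-bisphosphate, had an intronic summit 360 bp downstream (chrX:19495373-19497543, rank 58), and the replicate summits lay 363, 362 and 360 bp downstream. Rel encodes Relish, the NF-kappaB factor of the immune deficiency pathway. Its peak at chr3R:9046950-9049830 ranked 59, with the summit in the 5′ UTR 57 bp downstream, and 53, 81 and 50 bp downstream in the replicates. Pfk, the phosphofructokinase of glycolysis, ranked 76 with its summit in the 5′ UTR 9 bp downstream of an internal TSS (chr2R:10110323-10111597), and 15, 33 and 4 bp downstream in the replicates. The summits of sea, Tpi, Pfrx, Rel and Pfk were downstream in every replicate.

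In the 5′ UTR lay also the summits of CG5001 (28 bp downstream, rank 71), Syp, an RNA-binding protein that acts in the temporal patterning of neuroblasts (296 bp, rank 109), Synj, the synaptojanin of synaptic vesicle recycling (25 bp, rank 162), bun, a growth-promoting TSC22-family factor (218 bp, rank 174), and MTF-1, the metal-responsive transcription factor (23 bp, rank 196). Naam, a nicotinamidase (341 bp, rank 95), and Pcd, a pterin carbinolamine dehydratase (194 bp, rank 138), had intronic summits. The summits of CG32195 (209 bp, rank 136) and Grx1, a glutaredoxin (170 bp, rank 167), lay in coding exons. The peak of CG14777 (124 bp, rank 180) was one of 2 summits at its TSS, and the best-scoring overlapping peak of the replicates had its summit on the upstream side, at −77, −82 and −78 bp. The nearest replicate summit lay 126, 124 and 141 bp downstream and ranked 219, 124 and 310.

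Downstream summits crowded close to the TSS. The median distance was 86 bp with quartiles of 35 and 194 bp, and it was 89, 98 and 83 bp in the replicates. Upstream summits lay at a median of −133 bp in the IDR list and at −142, −147 and −119 bp in the replicates, so they were farther from the TSS in each list. Of the 961 summits, 325 (33.8%) lay within 50 bp, 209 beyond that up to 100 bp, 194 more up to 200 bp, 103 up to 300 bp, 57 up to 400 bp and 73 up to 500 bp. The replicate lists had 33.5% ± 3.02 (SD, n = 3) within 50 bp. With a median width of 464 bp, 796 of the 961 peaks reached back over their TSS. Fragments were sheared to 200 to 800 bp, per the labels, so many summits lie closer to the TSS than 1 fragment is long.

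**Figure D1:**
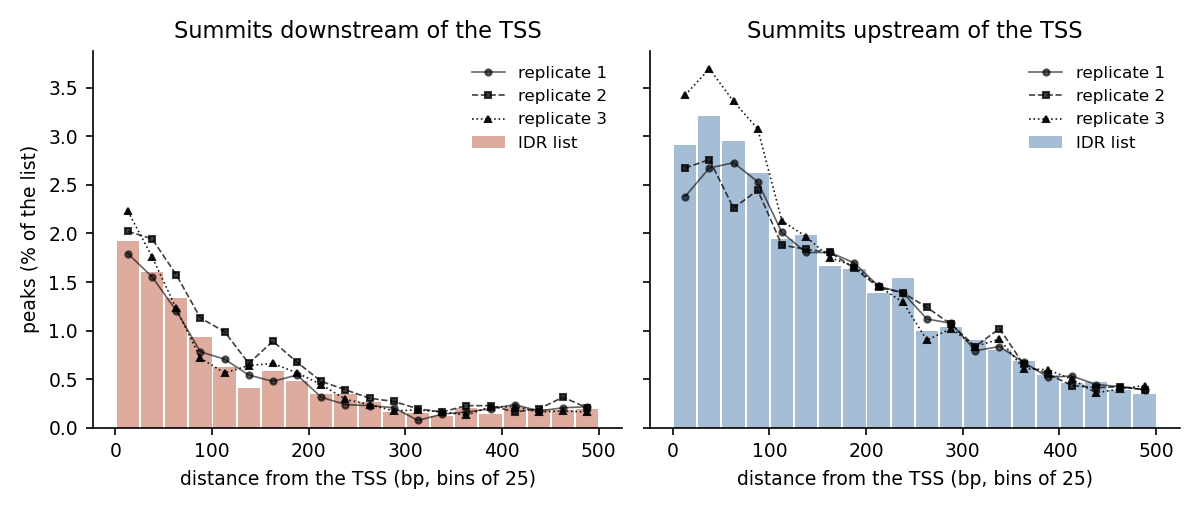
Distance of peak summits from the nearest protein-coding TSS, for downstream summits (left) and upstream summits (right), in 25 bp bins, as percent of the 9202 peaks of each list. Bars show the IDR list and lines the 3 replicate lists. Downstream summits are most frequent in the bins nearest the TSS and fewer than upstream ones in every bin of each list.

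At the near end of the range, cyc, CG15611 and CHKov2 had summits 1 bp downstream and were taken, while those of CG1640, CG9536 and Esyt2 sat on the TSS and were not. At the far end, tay, Achl and Mekk1 at 499, 498 and 497 bp were taken, and amn, CG31612 and pAbp at 502, 505 and 505 bp were not. These ranked between 263 and 7778 inside the range and between 666 and 5025 outside it.

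The annotation at the summit changed with distance, and coding exons were rarer than at the same distances from all TSSs. A 5′ UTR lay at 725 of the 961 summits (75.4%, Wilson interval 72.6 to 78.1%), an intron at 180 (18.7%, 16.4 to 21.3%), a coding exon at 54 (5.62%, 4.33 to 7.26%) and a 3′ UTR at 2. Where transcripts from the same TSS disagreed, 5′ UTR took precedence over coding exon, 3′ UTR and intron. The same set of distances placed at all 14770 TSSs without an opposite-strand neighbour gave 59.96% 5′ UTR, 13.9% intron and 25.6% coding exon. In the replicates, coding exons held 7.71%, 7.51% and 6.76% of the downstream summits, all below that value, and in the full lists of 30000 peaks the mean share was higher, at 12.4% ± 0.273 (SD, n = 3).

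Within 50 bp, 99.4% of the downstream summits lay in a 5′ UTR, against 89.7% for those distances at all TSSs. Between 300 and 400 bp the intron share was 70.2% of 57 summits, against 33.4% at all TSSs, and the coding share was 7.02%, against 44.6%. Beyond 400 bp introns held 65.8% of 73 summits, against 36.9%. Promoter peaks on either side lay mostly at long genes. The median gene length over the peaks was 6430 bp for downstream and 6379 bp for upstream peaks, against 2166 bp over all 13945 protein-coding genes. A gene with several peaks enters the medians over peaks several times, so the units differ. Of the genes with a downstream peak, 60.3% had more than 1 TSS, against 26.5% of all. A gene with more TSSs has more places at which the rule can take a peak, so a higher share follows in part from the rule. The part of gene length in the annotation shares was not tested.

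**Figure D2:**
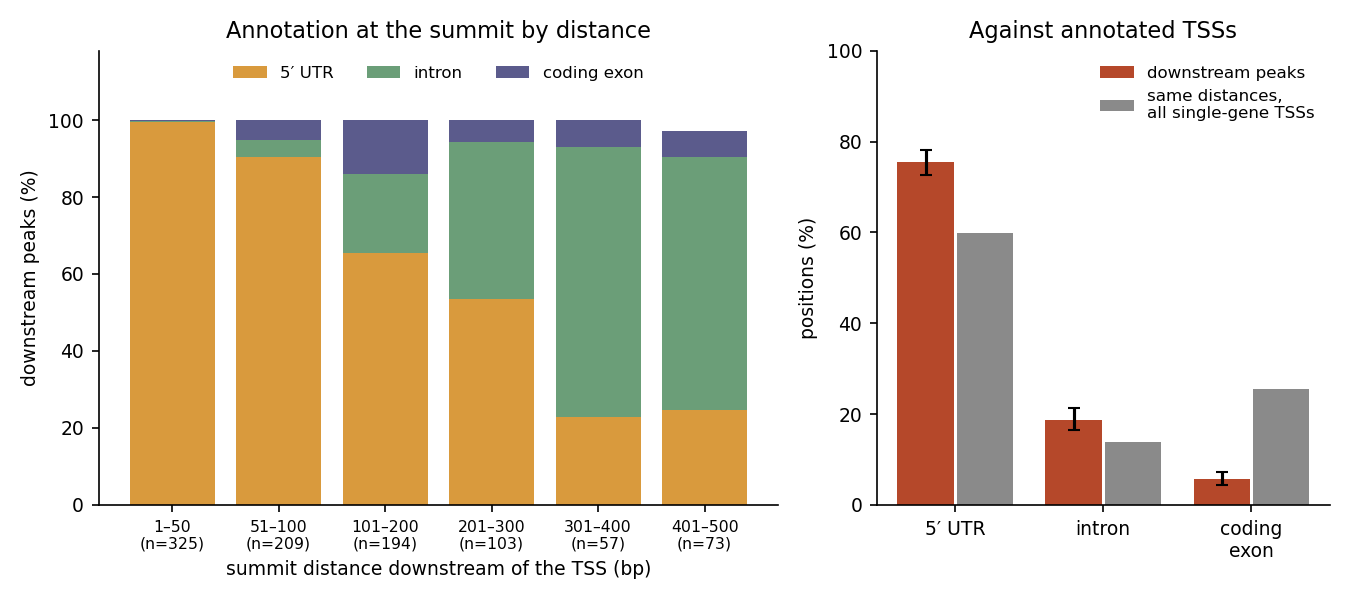
Left, annotation at the summit of the downstream peaks of the IDR list by distance from the TSS, in percent of the peaks of each bin, with their number under it. Right, all downstream peaks (bars with 95% Wilson intervals, which cover counting error only) beside the same distances placed at all single-gene TSSs; coding exons hold 5.62% of summits, against 25.6% of such positions.

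Downstream and upstream peaks of the shortened lists differed in their share at internal TSSs by less than the spread between replicates, while those of the full lists differed by more. Internal TSSs, those other than the most 5′ one of a gene, carried 33.1% of downstream peaks and 32.9% of upstream peaks, against 28.9% of all protein-coding TSSs. In the replicates the downstream share was 35.6%, 31.5% and 32.7%, against 31.8%, 34.0% and 31.0% for upstream peaks, a mean difference of 1.02 ± 3.17 percentage points (SD, n = 3, exact two-sided sign-flip permutation p = 0.75). In the full replicate lists the difference was 2.82 ± 0.947 points with 1 sign in 3 of 3 replicates (exact two-sided sign-flip permutation p = 0.25). With summits taken up to 1000 bp it was 2.85 ± 2.53 points (exact two-sided sign-flip permutation p = 0.5). With 3 replicates this test gives no p below 0.25, so no difference between downstream and upstream peaks can pass a threshold of 0.05. The first exon measured 323 bp at the median for downstream and 311 bp for upstream peaks, against 294 bp for all single-gene TSSs.

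Downstream peaks scored lower than upstream peaks in every replicate. The score is the authors' own value for each peak, no source used here gives its scale, and it was read only as a percentile of its list, with 100 for the highest. The median percentile was 40.3 for downstream and 59.9 for upstream peaks of the IDR list, which places the median downstream peak at rank 5493 and the median upstream peak at rank 3691. It was 38.4, 41.0 and 41.0 for downstream peaks, against 59.2, 59.6 and 59.8 for upstream peaks of replicates 1, 2 and 3. The difference of −19.4 ± 1.23 percentile points (SD, n = 3) had the same sign in 3 of 3 replicates (exact two-sided sign-flip permutation p = 0.25, the smallest possible). Among the 100 highest-scoring IDR peaks were 7 downstream and 56 upstream ones. Median widths were 464 bp for downstream and 471 bp for upstream peaks. In the replicates both medians were 444, 464 and 464 bp, the commonest widths of those lists, so the medians there cannot show a difference. That width was held by 34.7%, 29.4% and 31.3% of the downstream peaks of the replicates, against 20.7%, 17.6% and 19.6% of the upstream peaks. The upper quartile of width was 582, 631.5 and 649.5 bp for downstream peaks, against 626, 716 and 705 bp for upstream peaks, so upstream peaks reached greater widths in each replicate.

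Score varied with distance among the downstream peaks themselves. The median percentile was 35.4 to 40.9 in the 4 bins up to 300 bp, 49.9 between 300 and 400 bp and 54.1 beyond 400 bp. In the replicates the farthest bin stood at 55.0, 52.6 and 55.3, and the nearest bin at 38.8, 40.9 and 41.0. The bin between 300 and 400 bp stood at 52.7, 41.5 and 50.3, and in replicate 2 it was thus close to the 41.1 between 100 and 200 bp. Peaks with a summit in an intron had a median percentile of 46.3, against 37.9 for those in a 5′ UTR.

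Some promoters had a summit on either side of the same TSS. Of the 961 downstream peaks, 193 (20.1%) had an IDR summit within 500 bp upstream of their TSS, while 175 of 2621 upstream peaks (6.68%) had one within 500 bp downstream. The shares were 21.6%, 24.2% and 22.5% in the replicates for downstream peaks, against 7.21%, 10.6% and 7.55% for upstream peaks. A pair at 1 TSS counts once in each group, so the numbers with a partner, 193 and 175, are nearly equal by construction. The higher share among downstream peaks then follows from the smaller size of that group, and no test of it is given. Partners were most frequent for downstream summits between 100 and 200 bp, 43.8% of which had one, against 8.62% within 50 bp. Both a downstream and an upstream peak were found at 284 genes. Examples are bun and CG14777, named above, and ftz-f1, an ecdysone-pathway nuclear receptor gene. At ftz-f1 a downstream summit at 496 bp ranked 2093, and the best-scoring replicate peak over it lay 221, 226 and 229 bp upstream of the TSS with ranks 3, 8 and 3.

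**Figure D3:**
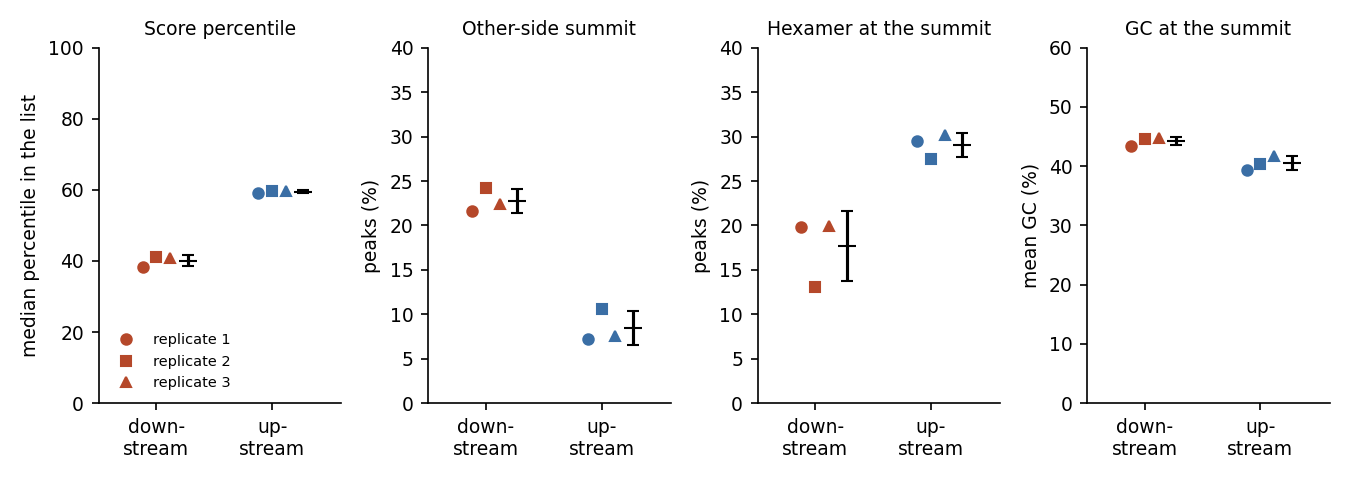
Values of the 3 replicates (points) with mean and SD (bars) for downstream and upstream peaks: median score percentile, percent of peaks with a second summit on the other side of the TSS, percent with the hexamer within 50 bp of the summit, and mean GC content of that window. In each panel the replicates of the groups do not overlap; downstream peaks are lower in score and hexamer, and higher in second summits and GC.

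Nearly all downstream peaks had a counterpart in each replicate. In the shortened replicate lists, 88.3%, 90.3% and 93.2% of them overlapped a peak by at least 1 bp, against 92.3%, 89.7% and 93.7% of the upstream peaks, and 743 (77.3%) did so in all 3, against 2116 (80.7%). The full lists of 30000 peaks overlapped 99.4%, 98.1% and 99.6% of them. The IDR list was made from these replicates, so this is a description and not independent evidence. Which side of the TSS a summit fell on was less stable. In the best-scoring overlapping peak the summit stayed downstream within 500 bp for 72.7%, 76.0% and 71.2% of the matched downstream peaks, while upstream summits kept their side in 90.7%, 88.5% and 91.9%. That difference of −17.1 ± 4.22 points (SD, n = 3) had 1 sign in 3 of 3 replicates (exact two-sided sign-flip permutation p = 0.25).

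Peaks with several summits enter that measure. Of the downstream peaks, 238 (24.8%) overlapped a higher-scoring IDR peak, against 378 (14.4%) of the upstream ones. When the replicate summit nearest to the IDR summit was used in place of the best-scoring one, 907, 902 and 917 of the 961 had one within 100 bp. Of these, 91.4%, 92.2% and 89.9% stayed downstream, against 96.0%, 94.3% and 97.2% for upstream peaks, a difference of −4.66 points. In all 3 replicates 657 downstream peaks (68.4%) met both conditions, against 2058 upstream peaks (78.5%). For summits within 50 bp of the TSS, where a short shift is enough to change sides, the share was 79.0% ± 1.86 (SD, n = 3). The median distance from the IDR summit to the nearest replicate summit was 15, 16 and 11 bp for downstream peaks, against 13, 13 and 7 bp for upstream peaks. Thor, the 4E-BP translation inhibitor of the insulin and TOR pathway, is an example, with its summit at 1 bp in the IDR list and at 40, −23 and −2 bp in the replicates.

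The hexamer AAAGCT was counted on both strands within 50 bp of each summit. It was present at 168 downstream summits (17.5%, Wilson interval 15.2 to 20.01%) and at 780 upstream summits (29.8%, 28.0 to 31.5%). Windows 86 bp downstream of all 19253 TSS positions, the median distance of the downstream peaks, held it in 5.32%, and windows 500 bp to either side of the downstream summits in 5.72%. The replicate lists had 19.87%, 13.09% and 19.98% at downstream summits, against 29.5%, 27.5% and 30.2% at upstream summits. The difference was −11.4 ± 2.60 points, lower in 3 of 3 replicates (exact two-sided sign-flip permutation p = 0.25). Among all hexamers, counted with their reverse complements, AAAGCT came first in excess over the TSS positions and last in the difference from upstream peaks. The next 3 in excess over the TSS positions overlap it by 5 letters, the first of them being AAAAGC, present at 19.7% of downstream summits and 10.8% of TSS positions.

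Score and hexamer went together. Downstream peaks with AAAGCT had a median percentile of 72.1, against 36.1 for the 793 without it. In the replicates the values were 68.1, 71.5 and 70.6 with it, against 33.7, 38.2 and 36.8 without it. With the IDR list cut into 5 equal classes from highest to lowest score, the hexamer was present in 47.3%, 23.7%, 11.9%, 8.40% and 9.61% of the downstream peaks, against 54.3%, 29.96%, 16.3%, 18.5% and 11.6% of the upstream peaks. In the highest class the difference was −9.94 ± 2.93 points over the replicates, lower in 3 of 3. It was lower in 3 of 3 also in the 3 lowest classes, and in 1 of 3 in the next to highest, where the mean difference was −0.815 ± 7.47 points.

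The hexamer was read on either strand. Of 213 matches in the downstream windows, 105 read AAAGCT in the direction of transcription and 108 against it. Within 25 bp of the summit, a stretch about as long as the rest of the window, lay 54.0% of them, against 62.7% of the 1224 matches in the upstream windows. The base before it was A in 46.5%, and the base after it was C in 39.4% and T in 35.2%. In windows moved away from downstream summits in steps of 25 bp, the share was 17.5% at the summit and 10.4% at 100 bp farther downstream. On the 5′ side it was 10.5% at 150 bp and 12.4% at 225 bp. Windows around upstream summits had the hexamer in 29.8% at the summit and in 8.74% at 225 bp on the 5′ side.

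Downstream summits farthest from the TSS had the hexamer most often. Beyond 400 bp it was present in 24 of 73 peaks (32.9%), against 18.5% within 50 bp, 14.8% from there to 100 bp and 12.4% between 100 and 200 bp. The farthest bin had 33.8%, 27.2% and 37.9% in the replicates, the highest of the 6 bins in each. Windows 450 bp downstream of all TSSs held it in 5.33%. By annotation, it was present at 17.5% of the 725 summits in a 5′ UTR, 18.9% of the 180 in an intron and 11.1% of the 54 in a coding exon. The coding value rests on 6 peaks, and the replicates had 11.3%, 14.4% and 19.1% there. Coding exons were thus lowest in replicates 1 and 3, in the latter close to the 19.5% of 5′ UTRs, and highest in replicate 2.

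**Figure D4:**
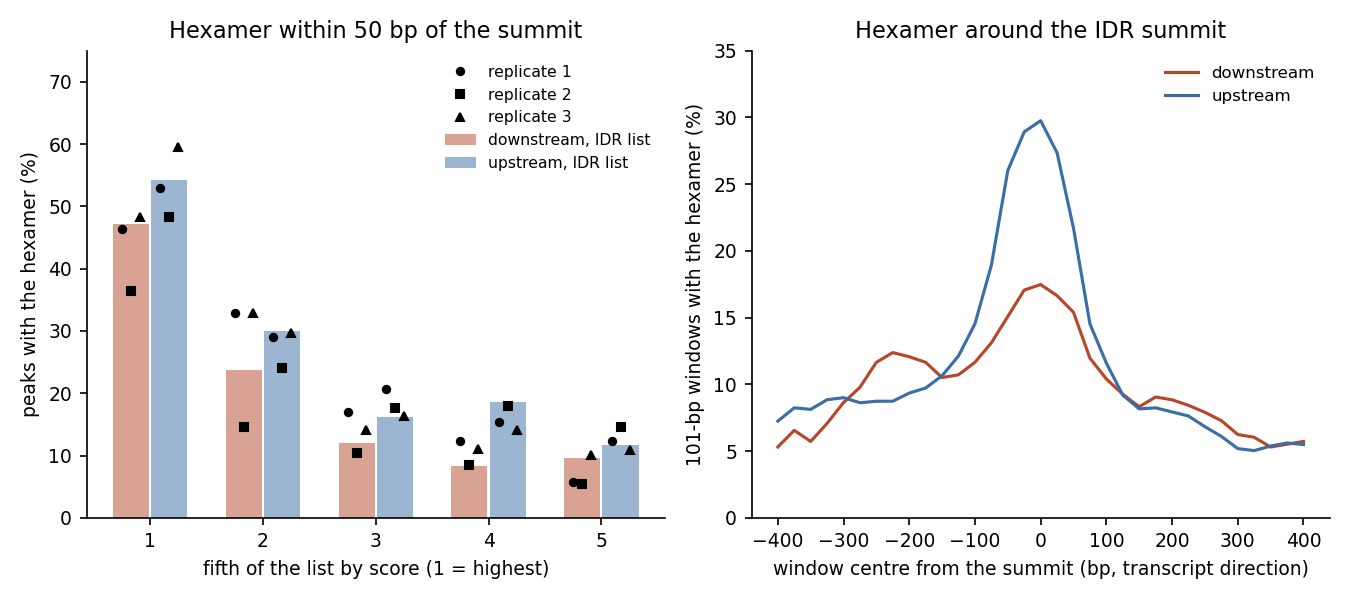
Left, percent of peaks with AAAGCT on either strand within 50 bp of the summit, by score class of 5 equal ones (1 is the highest), for downstream and upstream peaks of the IDR list (bars) and the replicates (points). Right, percent of windows of that width with the hexamer by their distance from the IDR summit in the direction of transcription; both groups peak at the summit, at 17.5% for downstream and 29.8% for upstream peaks.

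Of 25 consensus motifs searched on both strands, 9 were more frequent at downstream than at upstream summits in all 3 replicates and 8 less frequent, and the other 8 had mixed signs or ties. These counts hold nested motifs, since Motif 1 and its core are both among the more frequent and GAGA and its repeat are both among the less frequent. Of the IDR peaks, 743 of 961 downstream and 2116 of 2621 upstream ones overlapped a peak of all 3 shortened lists. The lists thus read much of the same sequence, and agreement between them on motifs or hexamers is not independent evidence. Some core promoter elements at or downstream of the TSS were among the more frequent. The hexamer GACGTG, a form of the downstream promoter element, was present at 3.75% of downstream summits, against 1.49% of upstream ones. Matched positions of all TSSs, at 86 bp and −133 bp from the TSS, held it in 2.33% and 1.32%. Its shares at replicate summits were 3.91%, 3.84% and 3.78%, against 1.71%, 1.72% and 1.72%. MTE, another downstream element, was rare, at 0.104% and 0%, and more frequent downstream in 2 of 3 replicates. The initiator core TCAGT, which overlaps the TSS in many fly promoters, was present at 22.2% of downstream and 19.5% of upstream summits. Matched positions of all TSSs, whose windows do not reach the TSS, held it in 17.3% and 15.7%. The CA repeat CACACACA was present at 4.89%, against 2.25%, with 2.24% at matched positions.

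The TATA box, GAGA and DRE were less frequent. TATAAA, the TATA box, was present at 10.2% of downstream and 15.2% of upstream summits, and matched positions of all TSSs held it in 10.8% and 18.3%. In the replicates its share was 11.2%, 8.76% and 9.84% at downstream and 17.5%, 15.8% and 12.9% at upstream summits. Upstream summits thus stood below that upstream position in each list, while downstream summits stood close to the downstream one, above it in replicate 1. Each position is a single distance at all TSSs, including those with an opposite-strand neighbour. The summits spread over 500 bp, so the comparison does not give the share at the summits' own distances. The GAGA element GAGAG, bound by the GAGA factor and pipsqueak, was present at 16.4% of downstream summits, against 22.2% of upstream ones. The matched positions held it in 11.1% and 14.97%, so it exceeded them in both groups. The DRE, bound by the DREF factor (TATCGATA), was present at 1.25% and 2.59%, against 0.338% and 1.15% at the matched positions. For Motif 1 (core GGTCACACT), a promoter element of housekeeping genes, the shares were 1.98% and 2.06%, with 0.171% and 0.566% at matched positions. In the replicates its share was 2.17%, 1.83% and 2.78% at downstream and 1.43%, 1.44% and 2.22% at upstream summits, the opposite order to the IDR list. The full Motif 1 consensus was present at 1.77% of downstream and 1.53% of upstream summits, and at 1.95%, 1.42% and 2.19% in the replicates, against 1.04%, 1.08% and 1.43%. Apart from Motif 1 and its core, none of the motifs given with values contains another, and a match is a description of letters only.

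GC content of the window was 44.1% at downstream and 40.6% at upstream summits, with 42.6% and 37.7% at matched TSS positions. It was 43.4%, 44.6% and 44.8% in the replicates, against 39.4%, 40.3% and 41.7%. The hexamers with the largest excess over upstream summits were AAACAC, present at 13.4% of downstream and 6.87% of upstream summits, then CGAAAA at 18.3% and 12.6%, AACGCG at 8.01% and 2.52%, and ACGCGA at 8.01% and 2.56%. All 4 were more frequent in 3 of 3 replicates. Matched positions of all TSSs held AAACAC in 9.76% on the downstream and 8.14% on the upstream side. For CGAAAA these shares were 15.7% and 11.3%, for AACGCG 4.96% and 2.66%, and for ACGCGA 4.83% and 2.38%. Each was thus more frequent on the downstream side without any choice of peaks, and for CGAAAA this held most of the excess. The last of the 4 overlaps the one before it, so their counts are not separate.

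A downstream peak was found at 854 of the 13945 protein-coding genes, 6.12%, and at 5.88%, 7.41% and 6.43% of them in the replicates. An upstream peak was found at 15.2%. At 469 genes the downstream peak was present in the IDR list and in all 3 replicates. Counts in 33 gene lists are read against the 6.12%. The lists hold from 12 to 180 genes, no test was made of them, and the genes of the lists are not independent. With other settings the share of all genes moved too, to 2.71% in the highest-scoring 4601 peaks and 15.5% in the full lists as means over the replicates, against 6.57%. It was 6.05% with only the most 5′ TSS of each gene, 7.32% with 1 to 1000 bp and 8.58% with opposite-strand TSSs allowed.

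The ecdysone response had 9 of 30 genes with a downstream peak, and 9, 9 and 8 in the replicates. Ecdysone is the steroid whose pulses trigger puparium formation shortly after the wandering stage. The genes were the early regulators Eip74EF and Eip75B, Eip63E and Eip63F-1, the nuclear receptors ftz-f1 and Hr78, the coactivator gene tai, and kay and vri, which encode bZIP factors. At Eip75B the stronger of 2 downstream peaks, at an internal TSS (chr3L:17999367-18000033), ranked 895 with its summit 57 bp downstream, and ranked 801, 570 and 1488 in the replicates at 42, 57 and 75 bp. Eip63F-1 had an intronic summit at 461 bp (rank 1571), which lay at 463, 437 and 460 bp in the replicates. An upstream peak was present at 15 of the 30 genes, and 7 of the 9 had both. Many of these genes have several TSSs, and with only the most 5′ TSS of each gene the mean over the replicates was 12.2%, against 28.9% with all TSSs. All protein-coding genes stood at 6.05% and 6.57% in these settings.

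Cytosolic ribosomal proteins had 14 of 92 genes with a downstream peak (15.2%), and 16, 20 and 17 in the replicates, while an upstream peak was found at 19 (20.7%). The mean over the replicates, 19.2%, was 5.07% in the highest-scoring 4601 peaks and 11.6% with a range of 1 to 1000 bp. All protein-coding genes stood at 2.71% and 7.32% there. Their summits lay close to the TSS. The median was 23.5 bp, 10 of the 14 summits lay within 50 bp, and 13 were in the 5′ UTR, with RpS3 in a coding exon. The nearest replicate summits had medians of 15.5, 69.5 and 22 bp, so those of replicate 2 lay farther downstream. RpS4 had the highest rank, 2751, with its summit at 20 bp and at 24, 88 and 20 bp in the replicates. RpS7 lay at 6 bp in the IDR list and at 7, 6 and 76 bp. The hexamer was present at 1 of the 14 summits, that of RpL24. None of 73 mitochondrial ribosomal protein genes and none of 48 proteasome genes had a downstream IDR peak. The replicates gave 0, 1 and 0 mitochondrial ribosomal protein genes and 0, 3 and 0 proteasome genes. With opposite-strand TSSs allowed, the mean for mitochondrial ribosomal proteins was 2.74%, against 0.457%, and in the full lists it was 5.94%, with 8.33% for the proteasome.

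Glycolysis had 4 of 18 genes (22.2%), and 4, 5 and 4 in the replicates. Besides Tpi and Pfk these were Pgk, the phosphoglycerate kinase, with an intronic summit at 316 bp (rank 3475), and Ald1, an aldolase, with summits at 161 and 360 bp (ranks 5715 and 4108). An upstream peak was found at 10 of the 18. With only the most 5′ TSSs the mean over replicates was 11.1%, where all protein-coding genes stood at 6.05%, against 24.1% with all TSSs. Oxidative phosphorylation had 3 of 88 genes (3.41%), ATPsynC, ND-B12 and UQCR-14, and a mean of 2.65% over the replicates. That mean was 6.82% with opposite-strand TSSs allowed and 10.6% in the full lists.

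The circadian clock list had 5 of 12 genes (41.7%), and 3, 4 and 2 in the replicates. The genes were cyc, which encodes a partner of Clock, the transcriptional regulators cwo, vri and Pdp1, and sgg, a kinase that acts on Timeless. At cyc the summit was 1 bp downstream of the TSS (rank 263) and lay at 11, 22 and −1 bp in the replicates. The other 4 ranked 1946 to 9028. An upstream peak was present at 6 of the 12 genes, and 3 of the 5 had both.

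Among other transcription factors with BTB domains, the family of Lola, 4 of 15 genes had a downstream peak (26.7%), and 2, 4 and 3 in the replicates. At ttk, which encodes Tramtrack, the intronic summit at 196 bp ranked 741 and lay at 202, 195 and 197 bp in the replicates, with ranks 751, 856 and 739. At ken the summit at 90 bp ranked 1782, in a peak of 5908 bp that also covers a stronger summit. The nearest replicate summits lay at 88, 90 and 79 bp with ranks 3128, 1468 and 1496. The others were psq and mod(mdg4). An upstream peak was present at 5 of the 15 genes. Of the insulator and GAGA factor list, CTCF, mod(mdg4), pita and su(Hw) had a downstream peak (4 of 15, 26.7%), and 3, 3 and 2 genes had one in the replicates. The mean of 17.8% over the replicates was 6.67% with a range of 1 to 250 bp, where all genes stood at 6.56%, and 4.44% in the highest-scoring 4601 peaks. In the JAK-STAT pathway, 3 of 13 genes had one among the IDR peaks, as in each replicate list. They were Stat92E, the transcription factor of the pathway, Socs16D and ken. Upstream peaks were present at 2 genes of the insulator and GAGA factor list and at 2 of the JAK-STAT list.

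The other signalling lists stood between 0 and 17.6%. The Hippo list had Mer, kibra and sd (3 of 17), with 4, 4 and 5 genes in the replicates. The Notch list had gro, numb, mib1 and Su(dx) (4 of 25), the insulin and TOR list Pdk1, Pi3K21B, REPTOR and Thor (4 of 24), and the EGFR list Egfr, csw and kek1 (3 of 23). The Wnt list had CkIalpha and sgg (2 of 25), and the Hedgehog and Dpp list none of 24, although the replicates had 3, 1 and 0 genes of it. Upstream peaks were present at 10 genes of the Notch list and 4 of the Hedgehog and Dpp list. The Hippo, insulin and TOR, EGFR and Wnt lists had 6 genes each with an upstream peak. For cell death, Dark, Debcl and Strica had a downstream peak (3 of 15). The Polycomb group had ph-p, Kdm2 and escl (3 of 19), with 2, 7 and 3 genes in the replicates, so replicate 2 stood apart there. The trithorax list had trx itself (1 of 24). Upstream peaks were present at 2 genes for cell death, 7 of the Polycomb group and 2 of the trithorax list.

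Of lists for cell types, neurons had brp, elav and Syx1A (3 of 23), glia Gli, loco and nrv2 (3 of 15), muscle rols and Zasp52 (2 of 25), and midgut digestion Mal-B2 (1 of 42). Axon guidance, which lola mutations are known to disturb, had Fas2, Fas3, Lar, Ptp10D and caps (5 of 40, 12.5%), with 3, 7 and 7 genes in the replicates. Upstream peaks were present at 8 neuron, 4 glia, 5 muscle, 3 midgut digestion and 10 axon guidance genes. No gene had a downstream IDR peak among 16 of haemocytes, 123 of the cuticle and 180 of chemosensory receptors. Each replicate had 1 of the haemocyte genes (6.25%), the cuticle list had 0, 1 and 0, and the chemosensory receptors had none in any replicate. Of the remaining lists, lipid synthesis and storage had Desat1 and Lpin (2 of 19), autophagy Atg1 and ref(2)P (2 of 24), cell cycle regulators E2f1 and tws (2 of 31), translation initiation factors eIF4A and eIF4E1 (2 of 44), imaginal disc patterning factors Bx and tsh (2 of 40), and heat shock proteins Hsf (1 of 23).

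**Figure D5:**
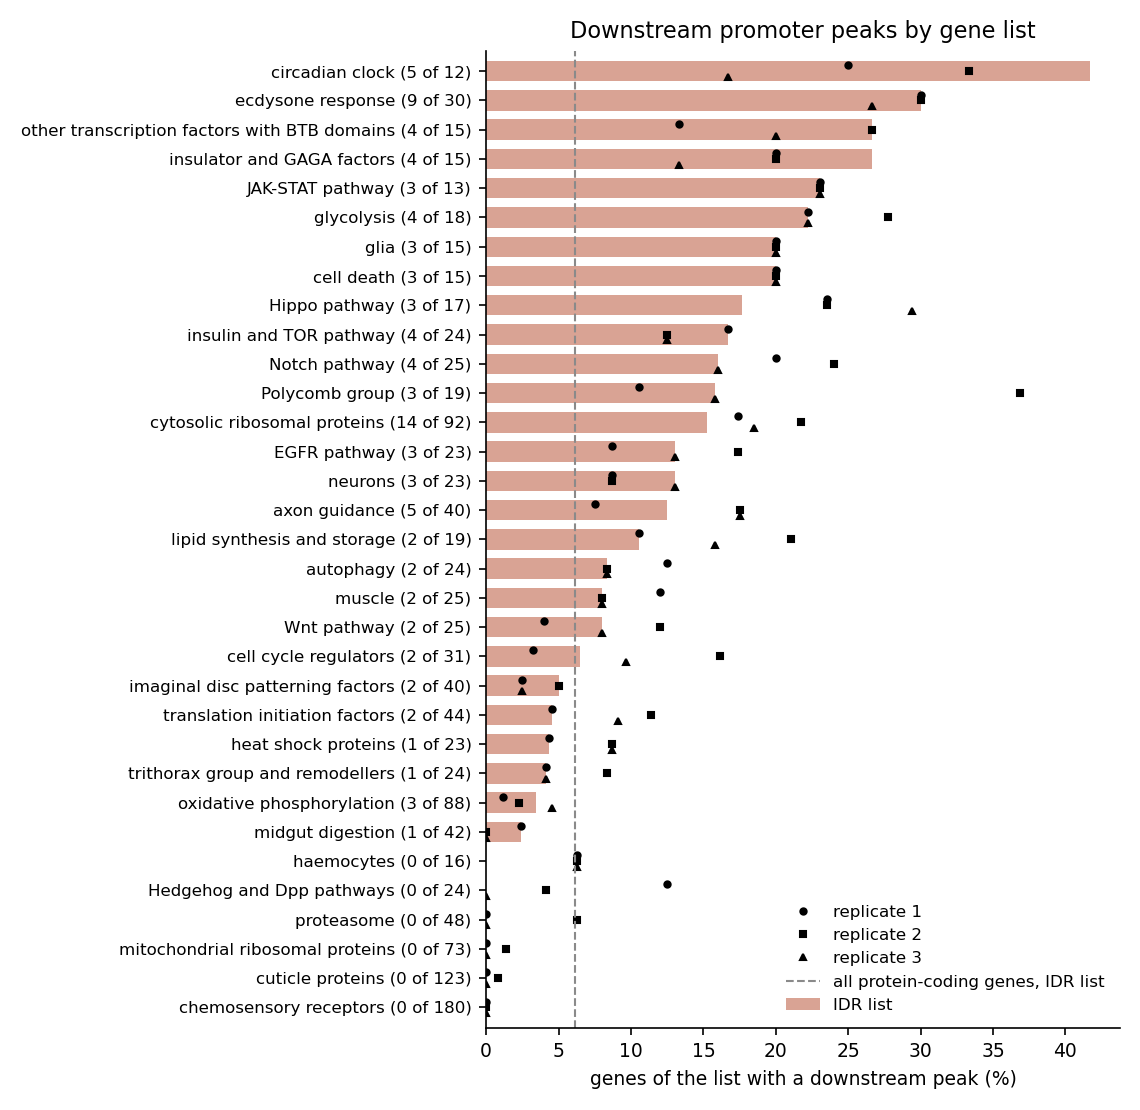
Percent of the genes of each of 33 lists with a downstream peak, in the IDR list (bars, with the count of genes) and in the replicates (points); the dashed line marks the 6.12% of all protein-coding genes. In the IDR list the circadian clock stands at the top, followed by the ecdysone response and by the BTB and insulator lists with 26.7% each. Over the replicates the ecdysone response has the highest mean, 28.9%, followed by Hippo with 25.5% and the circadian clock with 25%. Each of these means lies above that of BTB. In the IDR list 6 lists have no gene with a downstream peak.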

How the data were processed

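Each deposited peak list gives a start, an end, a summit offset and the authors' score per peak, in dm6. Peaks were called per replicate and on the pooled replicates, and the IDR list was selected from them, per the deposited text descriptions. No source used here gives the aligner, the peak caller, a version, the IDR threshold or the score's scale, and the score was used for ranks within a list only. The lists hold no read counts, so the depth is unknown, and Wilson intervals cover counting error over peaks only. Peaks and genes are not replicates.

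Summits were assigned to the nearest of 19253 protein-coding TSS positions of Ensembl release 115, without transposable elements, on X, 2L, 2R, 3L, 3R and 4. Replicate lists of 30000 peaks were shortened to their 9202 highest-scoring peaks. Replicate peaks were matched to IDR peaks by an overlap of at least 1 bp, taking the best-scoring one, or, as an alternative chosen after seeing the data, by the nearest summit within 100 bp. Motifs and all 2080 hexamers were searched on both strands of 101 bp windows from the release 6 genome. Downstream minus upstream differences within the 3 replicates were tested by an exact two-sided sign-flip permutation test, whose smallest p is 0.25, and the threshold was 0.05. The samples are labelled as biological replicates, but of 1 line. Python 3.11.15, pandas 2.3.3 and NumPy 2.4.6 were used, and the code was tested on simulated data.

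Of the symbols in the 33 gene lists, 17 were matched by a synonym and 10 had no match. The genes named are lola, those of the 15 highest-scoring downstream peaks, up to 3 of each list by score, and those at both ends of the distance range. Those in the top 50 of all replicates, with the replicate summit also downstream, are named as well. Further members of short lists were named after their values were seen. The peaks, lists and motifs were chosen with earlier results of these data known.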

Additional observations from a re-analysis of the deposited data

How the results depend on the processing

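The alternatives were a range of 1 to 250 or 1 to 1000 bp, TSSs of all annotated genes, only the most 5′ TSS of each gene, no exclusion of opposite-strand TSSs, only the better-scoring part of each list (4601 peaks), full replicate lists, wider or narrower motif windows, and leaving out each replicate. Values are means over the replicates. The share of downstream peaks, 11.3%, was 13.4% with 1 to 1000 bp, 14.6% with opposite-strand TSSs allowed, 8.98% in the highest-scoring part and 9.41% in full lists. Their median distance, 90.0 bp, was 66.5 bp with 1 to 250 bp, 180.0 bp with 1 to 1000 bp, 114.7 bp with the most 5′ TSSs, 75.8 bp with opposite-strand TSSs allowed, 102 bp in the highest-scoring part and 124.5 bp in full lists. The 5′ UTR share, 74.5%, was 83.2% with 1 to 250 bp, 54.8% with 1 to 1000 bp, 77.3% with opposite-strand TSSs allowed, 71.9% in the highest-scoring part and 67.5% in full lists, where coding exons held 12.4%, against 7.32%. Genes with a downstream peak, 6.57%, were 8.58% with opposite-strand TSSs allowed, 2.71% in the highest-scoring part and 15.5% in full lists. The highest-scoring part of the IDR list held 377 downstream peaks.

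Recovery of downstream minus upstream peaks, −1.29 points, was −5.01 with the replicate summit within 100 bp, with 1 sign in 3 of 3 replicates, turned to 0.334 in the highest-scoring part and 0.415 in full lists, and ranged from −2.23 to 0.0396 when a replicate was left out. The difference in internal TSSs, 1.02 points, was 2.88 in the highest-scoring part, 2.85 with 1 to 1000 bp and 2.82 in full lists, and ranged from −0.369 to 2.74 when a replicate was left out. That for the Motif 1 core, 0.566 points, turned to −0.174 in full lists. The causes were not tested. Differences in score percentile (−20.3 to −11.8 points over all alternatives) and AAAGCT (−13.7 to −7.92 points) kept their sign under every alternative run. That in second summits was 11.2 to 22.1 points, and its sign is set by the group sizes. The difference in side kept, −17.1 points, was −4.66 with the replicate summit within 100 bp. Depth is unknown, so it limits the precision of every summit by an amount that cannot be given.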
